A study of Mus musculus with 14 samples.

Results

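The genes of phase II conjugation described here are the glutathione S-transferases (GST), the UDP-glucuronosyltransferases (UGT) and the sulfotransferases (SULT). They were chosen by gene symbol alone: Gst followed by the class letter a, k, m, o, p, t or z and a number, Ugt with a family number from 1 to 3, the letter a or b and a number, and Sult followed by a number. Of 19505 named genes on the arrays, 52 met this rule, with 21 GST, 10 UGT and 21 SULT genes. A mouse gene table holds 64 protein-coding genes with such symbols, and the other 12 were not analysed here. These 12 are the 9 Ugt1a genes, which include the bilirubin-conjugating Ugt1a1, together with Gsta1, Ugt2a1 and Ugt2a2.

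Conjugation makes drugs, pollutants and the body's own reactive or fat-soluble compounds more water-soluble, so that they can leave the liver in bile or blood. GST enzymes add the tripeptide glutathione to electrophiles such as epoxides and lipid peroxidation products, UGT enzymes add a sugar acid taken from UDP-glucuronic acid, and SULT enzymes add a sulfate group taken from the donor PAPS. The liver is the main site of all 3 reactions, and many of these genes are known targets of the oxidant sensor NRF2 (gene Nfe2l2) and of the xenobiotic receptors CAR (Nr1i3), PXR (Nr1i2) and AhR (Ahr).

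RNA from 14 liver samples of male C57BL/6 mice, labelled as 4 months old, was hybridised to Affymetrix arrays. All mice were homozygous for floxed alleles of Prkaa1 and Prkaa2, the genes of the 2 catalytic alpha subunits of the energy sensor AMPK, had a high-fat diet (60% of calories) from 6 weeks of age, and were injected at 10 weeks with the virus AAV8. The vector, with the hepatocyte-directed TBG promoter, was empty in the 6 control samples and carried Cre recombinase in the 8 knockout samples. For 3 further weeks both groups received a daily metformin dose of 50 mg/kg, and livers were taken after a fast of 16 h, so every comparison below is between metformin-exposed livers. In the knockout samples, cells in which this promoter is silent keep both genes. The labels do not say that each sample is a separate mouse, and knockout 7 and 8 carry in their descriptions the numbers already given to knockout 5 and 6. The p-values therefore reflect only how far these samples spread, some of which may be technical.

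Values are log2 expression, and a difference of 1 is a doubling. The arrays fell into 2 sets, found from their correlations over all rows (0.988 to 0.994 within a set, 0.951 to 0.963 across sets) and not named in the labels. Set 1 holds control 1 to 3 and knockout 1 to 4, and set 2 holds control 4 to 6 and knockout 5 to 8. Differences are knockout minus control ± SE, fitted in limma together with a term for the set. The adjusted p (Benjamini-Hochberg) covers all 19505 genes, and 0.05 was the threshold. The targeted genes bore out the labels: Prkaa2 fell by 1.13 ± 0.08 (adjusted p = 1.92e-06) and Prkaa1 by 0.67 ± 0.13 (adjusted p = 0.0302), with 8 of 8 knockout arrays below every control array of their set for each. The 9 measured hepatocyte markers averaged 12.9 to 13.3 in both groups, against array medians of 5.82 to 5.97. In bulk liver, fewer cells of a type and less RNA per cell cannot be told apart.

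None of the 52 conjugation genes passed the threshold in either direction in limma. The background over all genes was 0.431% higher and 0.272% lower. The nearest were Gstt3 (-0.79 ± 0.18, adjusted p = 0.0604) and Sult1c2 (-0.88 ± 0.21, adjusted p = 0.0682) on the lower side, and Gstm4 (0.26 ± 0.08, adjusted p = 0.163) and Gstm3 (0.75 ± 0.23, adjusted p = 0.208) on the higher side. At an unadjusted p under 0.05, 10 members were on the higher side, or 19.2% of 52 against 5.53% of all genes. On the lower side were 5, or 9.62% against 4.83%. The 10 include 4 Gstm, 2 Ugt2b and 2 Sult3a genes. Both Sult3a genes are among the 16 members with both group means under 5. Of all 19505 genes, 7122 had such means. Members of a family are measured on the same arrays, so these shares carry no test. No member had groups free of overlap in both sets at once, which held for 0.774% of all genes with knockout higher and for 0.538% with knockout lower. At least 7 of the 8 knockout arrays lay above every control array of their set for 5 members (Gstm4, Gstm7, Ugt2a3, Ugt2b5 and Ugt2b36), against 2.18% of all genes. At least 7 lay below for 3 members (Gstt1, Gstt3 and Sult1c2), against 1.67% of all genes.

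Calls appeared under other settings of the same fit, for different members. When only the 12383 genes with a group mean of at least 5 were tested, Gstt3 (adjusted p = 0.0400) and Sult1c2 (adjusted p = 0.0464) were called lower out of 36 members. In that fit 0.678% of genes were called lower and 1.12% higher, the latter with 0 members. With a mean-dependent prior and robust estimation in limma's eBayes, Gstm4 (adjusted p = 0.0464) and Ugt2b5 (adjusted p = 0.0250) were called higher and Gstt1 (adjusted p = 0.0291) lower, where 1.03% of all genes were called higher and 0.636% lower. Without a term for the array set 0 members were called, where 0% of all genes were called as well.

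By sign, the families stood as follows. All 10 UGT genes had a positive difference, with a median of 0.14 and a range from 0.01 to 0.29. Of 21 GST genes 17 were positive, with a median of 0.10 and a range from -0.79 to 0.75. Of 21 SULT genes 9 were positive, with a median of -0.03 and a range from -0.88 to 0.46. Over all 19505 genes 50.6% were positive and the median was 0.00. Members of a family are measured on the same arrays and move together there, so these shares carry no test. Dim genes, with both group means under 5, made up 14 of the 21 SULT genes, 2 GST genes and 0 UGT genes. The background level of the arrays is not known here, so such rows may not measure their gene. With dim genes set aside, 3 of 7 SULT genes were positive, with a median of -0.12 and a range from -0.88 to 0.11. For GST these were 15 of 19, with a median of 0.10, and 52.6% of all such genes were positive.

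**Figure D1:**
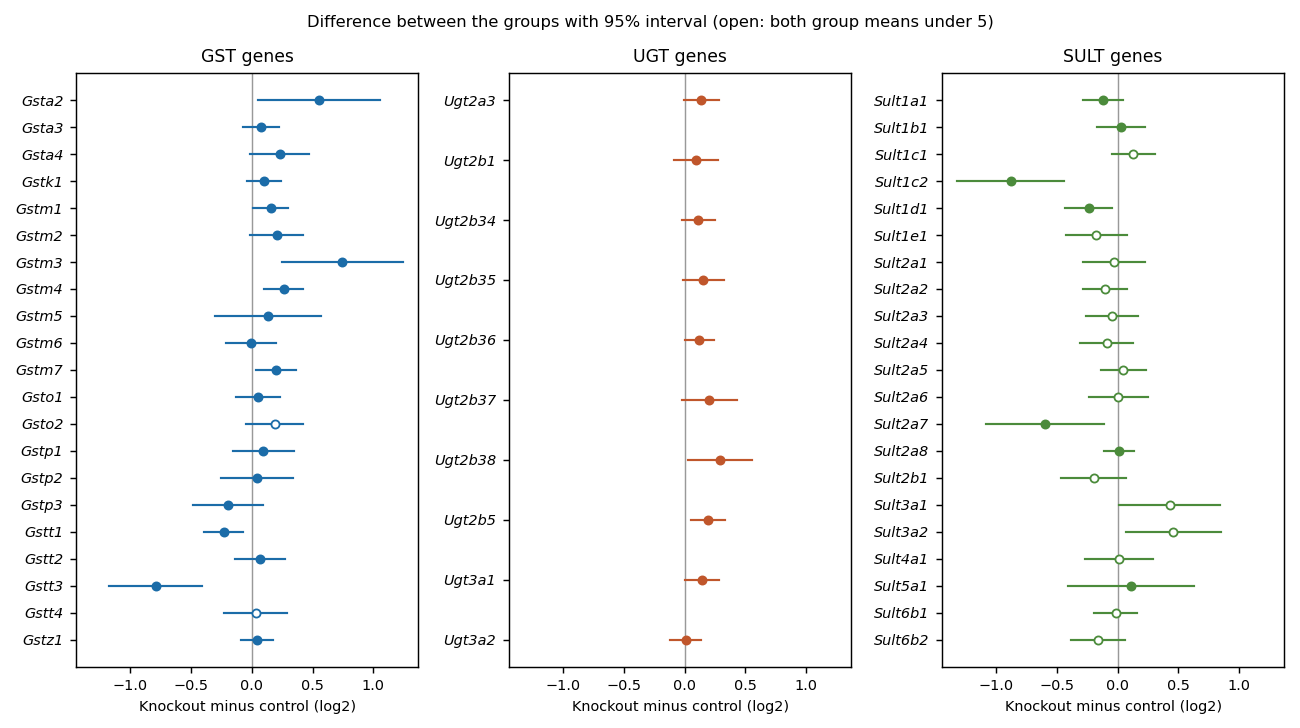
Knockout minus control on the log2 scale (x axis) for each of the 52 genes, with the 95% interval of the limma fit with the array set as a term, n = 6 control and 8 knockout arrays. Points are filled where a group mean reaches 5 and open where both are below it. All 10 UGT points lie right of 0 within 0.29 of it, while Gstm3 at 0.75, Gstt3 at -0.79 and Sult1c2 at -0.88 lie farthest out.

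The mu class genes (Gstm), whose enzymes conjugate epoxides and quinones, had 6 of 7 positive differences with a median of 0.20, in both array sets for the same 6. Gstm3 had the widest difference of the class. In set 1 its control values were 8.46, 8.32 and 8.21 and its knockout values 8.74, 9.25, 9.57 and 9.27. In set 2 the controls were 8.15, 7.67 and 9.35 and the knockouts 8.18, 9.24, 9.38 and 9.24. The groups were apart in set 1 and overlapped in set 2, where control 6 lay above all knockout arrays but knockout 7. The difference was 0.75 ± 0.23 (95% interval 0.25 to 1.24, adjusted p = 0.208). Without control 6 it was 0.97 with adjusted p = 0.0432, so that 1 array decides the call.

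Gstm4 differed less but with a narrower spread. The set 1 controls averaged 9.04 ± 0.06 (SD, n = 3), against a knockout mean there of 9.35 ± 0.14 (SD, n = 4). The set 2 means were 9.04 ± 0.07 (SD, n = 3) for control, then 9.25 ± 0.17 (SD, n = 4) for knockout. Knockout 5, at 9.04, was the 1 knockout array within the control range of its set. The other mu class genes had differences of 0.16 ± 0.07 for Gstm1, 0.20 ± 0.10 for Gstm2, 0.13 ± 0.21 for Gstm5 and 0.20 ± 0.08 for Gstm7, with adjusted p from 0.362 to 0.899. Gstm6 stood at -0.00 ± 0.10 (95% interval -0.21 to 0.20), and whether it differs from Gstm3 was not tested.

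The alpha class genes (Gsta), which also reduce lipid hydroperoxides, were positive in 3 of 3 cases. Gsta2 had control values of 7.70, 7.59 and 7.47 in set 1 and knockout values of 8.22, 8.76, 8.64 and 8.65. In set 2 the control values were 6.47, 5.78 and 7.50 and the knockout values 6.24, 6.96, 6.44 and 7.19. All knockout arrays were above the controls in set 1, and in set 2 all of them lay inside the control range. The difference was 0.55 ± 0.24 (95% interval 0.05 to 1.05, adjusted p = 0.416), from 0.98 in set 1 and 0.12 in set 2. A test of the difference between the sets gave adjusted p = 0.9975, so the gap between them is not shown. Without control 6 the difference was 0.81 with adjusted p = 0.0495. The Gsta2 row may also take signal from Gsta1, a near-identical neighbour in sequence, since how the probes tell them apart is not known here.

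Gsta4, which detoxifies the lipid peroxidation product 4-hydroxynonenal, differed by 0.23 ± 0.12 (adjusted p = 0.531), with 6 of 8 knockout arrays above every control of their set. Gsta3, an abundant liver form that conjugates the aflatoxin epoxide in mice, differed by 0.07 ± 0.07 (95% interval -0.07 to 0.22). Its values ran from 12.50 to 12.74 in control and from 12.56 to 12.91 in knockout arrays, and the groups overlapped in both sets.

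The theta class (Gstt), which acts on haloalkanes, held the widest negative difference among the GST genes. Gstt3 had control values of 9.32, 9.0 and 8.42 in set 1 and 9.16, 8.97 and 8.52 in set 2. Its knockout values were 8.29, 8.65, 7.66 and 8.40 in set 1 and 7.61, 8.48, 7.77 and 8.01 in set 2. Of the 8 knockout arrays 7 lay below every control of their set, and knockout 2 lay between the controls. The difference of -0.79 ± 0.18 corresponds to 0.579 of the control level (95% interval on the log2 scale -1.17 to -0.41), at -0.66 in set 1 and -0.92 in set 2. Its adjusted p of 0.0604 went down to 0.0316 without control 3 and to 0.0482 without knockout 6, and up to 0.148 at most when another array was left out.

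Gstt1, the theta enzyme best known for conjugating dichloromethane, differed by -0.23 ± 0.07 (95% interval -0.39 to -0.07, adjusted p = 0.217). Control arrays averaged 11.39 ± 0.04 (SD, n = 3) in set 1, where knockout arrays averaged 11.20 ± 0.08 (SD, n = 4). In set 2 the control mean was 10.98 ± 0.16 (SD, n = 3), beside 10.71 ± 0.15 (SD, n = 4) for knockout. Here too 7 of 8 knockout arrays were below every control of their set. Gstt2 was at 0.07 ± 0.10, with a 95% interval of -0.14 to 0.27 that overlaps the interval of Gstt1. Whether Gstt2 differs from Gstt1 or Gstt3 was not tested. Gstt4 was dim, with means of 3.23 and 3.26.

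**Figure D2:**
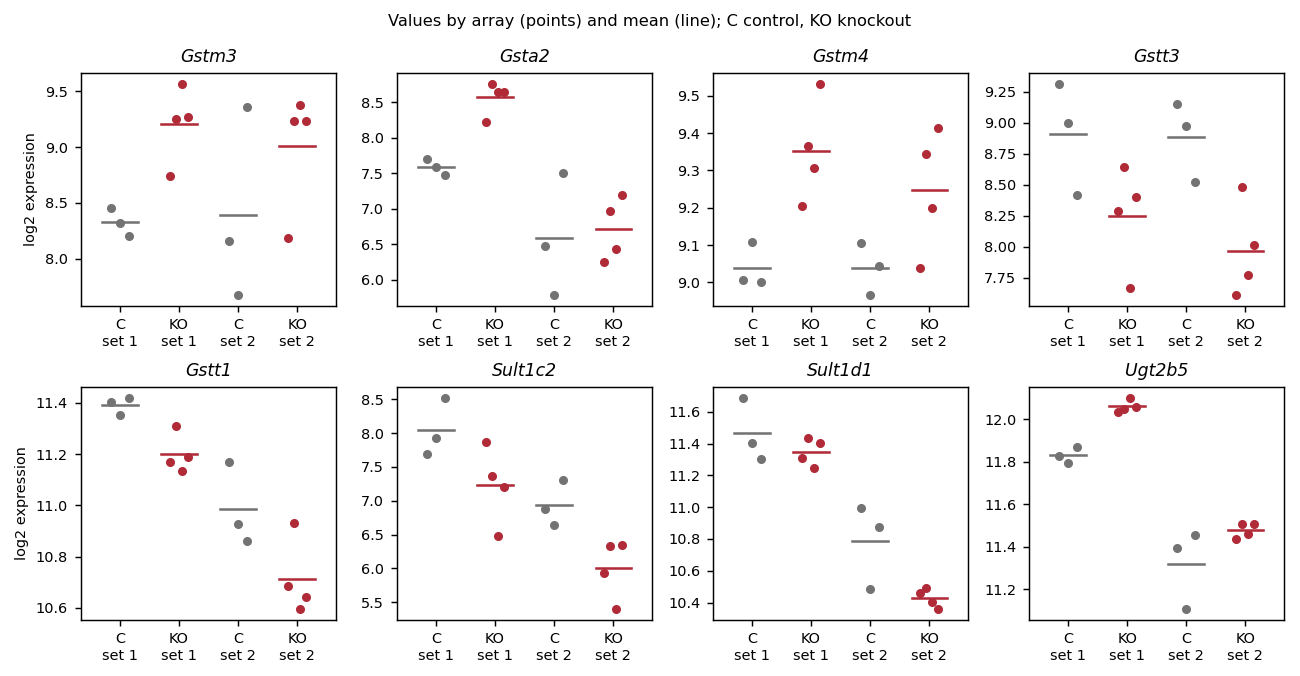
Log2 expression (y axis, scaled per gene) of 8 genes in each array, as points, with the group mean as a line, for control (C) and knockout (KO) arrays of set 1 (n = 3 and 4) and set 2 (n = 3 and 4). Gstt3, Gstt1 and Sult1c2 sit lower in knockout in both sets, and Gstm3 and Gsta2 are apart in set 1 and overlap in set 2. The set itself shifts Gsta2 (-1.49, set 2 minus set 1), Sult1c2 (-1.18), Sult1d1 (-0.82), Ugt2b5 (-0.55) and Gstt1 (-0.45).

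In the pi class, Gstp1 (0.10 ± 0.12) and Gstp2 (0.04 ± 0.14) had values near 0 and Gstp3 -0.20 ± 0.14, with adjusted p from 0.687 to 0.958. Gstp1 and Gstp2 are highly alike in sequence and may share signal. Both were lowest in control 5 and highest in control 6 among the set 2 controls, at -0.34 and 0.45 of the set's control mean for Gstp1 and at -0.34 and 0.48 for Gstp2. In the remaining classes each 95% interval included 0. Gstk1, the mitochondrial and peroxisomal kappa enzyme, was at 0.10 ± 0.07, and Gsto1, an omega enzyme that reduces dehydroascorbate, at 0.05 ± 0.09. Gstz1, which isomerises maleylacetoacetate in tyrosine breakdown, was at 0.04 ± 0.06 (95% interval -0.09 to 0.17). Gsto2 was dim, at 0.19 ± 0.11.

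The sulfotransferases held the most negative difference of all 52 genes. Sult1c2, whose human relative sulfates phenols, had control values of 7.69, 7.93 and 8.52 in set 1 and 6.88, 6.64 and 7.31 in set 2. The knockout values were 7.87, 7.37, 6.48 and 7.21 in set 1 and 5.94, 6.33, 5.40 and 6.35 in set 2. All knockout arrays of set 2 lay below the controls, and in set 1 knockout 1 lay between them. The difference of -0.88 ± 0.21 (95% interval -1.32 to -0.44) is 0.545 of the control level. Its adjusted p of 0.0682 was 0.0419 without knockout 1 and at most 0.151 without another array. A set gap of -1.18, set 2 minus set 1, was wider than the group difference. Each set holds 3 control and 4 knockout arrays, so the set term alters the error and p but not the value.

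Sult1d1, which sulfates catecholamines in the mouse, differed by -0.24 ± 0.09 (95% interval -0.43 to -0.04, adjusted p = 0.348). In set 2 its 4 knockout values of 10.36 to 10.49 overlapped with control 5 at 10.48 and lay below control 4 at 11.00 and control 6 at 10.88. In set 1 the groups overlapped, the control mean being 11.47 ± 0.20 (SD, n = 3) beside a knockout mean of 11.35 ± 0.09 (SD, n = 4). Sult1a1, the main phenol sulfotransferase of liver, was at -0.12 ± 0.08 and Sult1b1, which acts on thyroid hormones, at 0.03 ± 0.09. Sult1c1 and the oestrogen sulfotransferase gene Sult1e1 were dim, at 0.13 ± 0.08 and -0.17 ± 0.12.

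Of 8 Sult2a genes, which encode hydroxysteroid and bile acid sulfotransferases, 6 (Sult2a1 to Sult2a6) were dim, with differences from -0.10 to 0.05. Sult2a8, a bile acid sulfotransferase of mouse liver, hardly varied: its difference was 0.01 ± 0.06 with a 95% interval of -0.11 to 0.14. Sult2a7, its neighbour, ranged from 4.13 to 6.88 in control and from 3.53 to 6.44 in knockout arrays, and differed by -0.60 ± 0.23 (adjusted p = 0.338) with a set gap of -1.79. The amine sulfotransferase gene Sult3a1 (0.43 ± 0.20) and its paralogue Sult3a2 (0.46 ± 0.18) had the highest SULT values but were dim, with group means from 3.27 to 3.86. Sult5a1 stood at 0.11 ± 0.25 and had the widest error of the 52 genes, with control 3 at 7.37 and knockout 6 at 7.67 the highest of their groups and medians of 6.31 and 6.48. Sult2b1, which sulfates cholesterol, was dim at -0.20 ± 0.13. Sult4a1 (0.01 ± 0.13), a brain form, Sult6b1 (-0.02 ± 0.08) and Sult6b2 (-0.16 ± 0.10) were dim as well.

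The UGT genes measured were 7 of the Ugt2b group, Ugt2a3 and both Ugt3a genes, and none was dim. Ugt2b enzymes glucuronidate steroids, bile acids and many drugs. Ugt2b5 had a set 1 control mean of 11.83 ± 0.04 (SD, n = 3), with 12.06 ± 0.03 (SD, n = 4) for knockout. Its set 2 control mean was 11.32 ± 0.19 (SD, n = 3), with 11.48 ± 0.04 (SD, n = 4) for knockout. All 4 knockout arrays of set 1 were above the controls, and in set 2 knockout 5, at 11.44, was just under control 6, at 11.45. The difference was 0.19 ± 0.07, or 1.14-fold (95% interval on the log2 scale 0.05 to 0.33, adjusted p = 0.257). Ugt2b36 (0.12 ± 0.06) and Ugt2a3 (0.14 ± 0.07) had the same count of 7 of 8 knockout arrays above the controls of their set.

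Ugt2b38 had the highest UGT difference, 0.29 ± 0.12 (adjusted p = 0.412), made of 0.55 in set 1 and 0.03 in set 2. The test of the difference between the sets gave adjusted p = 0.9975 over all genes. Its set 1 control values of 9.76, 9.69 and 9.65 lay below the knockout values of 10.32, 10.14, 10.39 and 10.16, while in set 2 the knockout values of 8.82 to 9.05 lay within the control range of 8.45 to 9.30. Ugt2b1 (0.10 ± 0.08), Ugt2b34 (0.11 ± 0.06), Ugt2b35 (0.15 ± 0.08) and Ugt2b37 (0.20 ± 0.11) had intervals that include 0. Of the Ugt3a genes, whose human products use sugars other than glucuronic acid, Ugt3a1 was at 0.14 ± 0.06 and Ugt3a2 at 0.01 ± 0.06 (95% interval -0.12 to 0.13). The 7 Ugt2b genes are alike in sequence, and whether their rows are independent measurements is not known here.

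The UGT values also varied together from array to array. In set 1 the median UGT value relative to the control mean of the set was 0.20, 0.19, 0.23 and 0.20 in knockout 1 to 4, with 10, 10, 10 and 9 of the 10 genes above that mean. In set 2 the medians were -0.01, 0.11, 0.09 and 0.14 in knockout 5 to 8, with 5, 8, 7 and 9 of the 10 genes above. Within the control group of set 2, control 5 was at -0.16 and control 6 at 0.10. Control 1 to 6 had 7, 2, 7, 7, 2 and 9 of the 10 genes above the control mean of their set. Over the 36 members with a group mean of at least 5, control 5 was the lowest control of set 2 for 22 and control 6 the highest for 22. Knockout 5 was below the control mean for all but 7 of the 36, whereas the other knockout arrays were above it for 18 to 27. With control 5 and control 6 both left out, a choice made after seeing the data, 0 members were called, beside 0.185% of all genes.

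**Figure D3:**
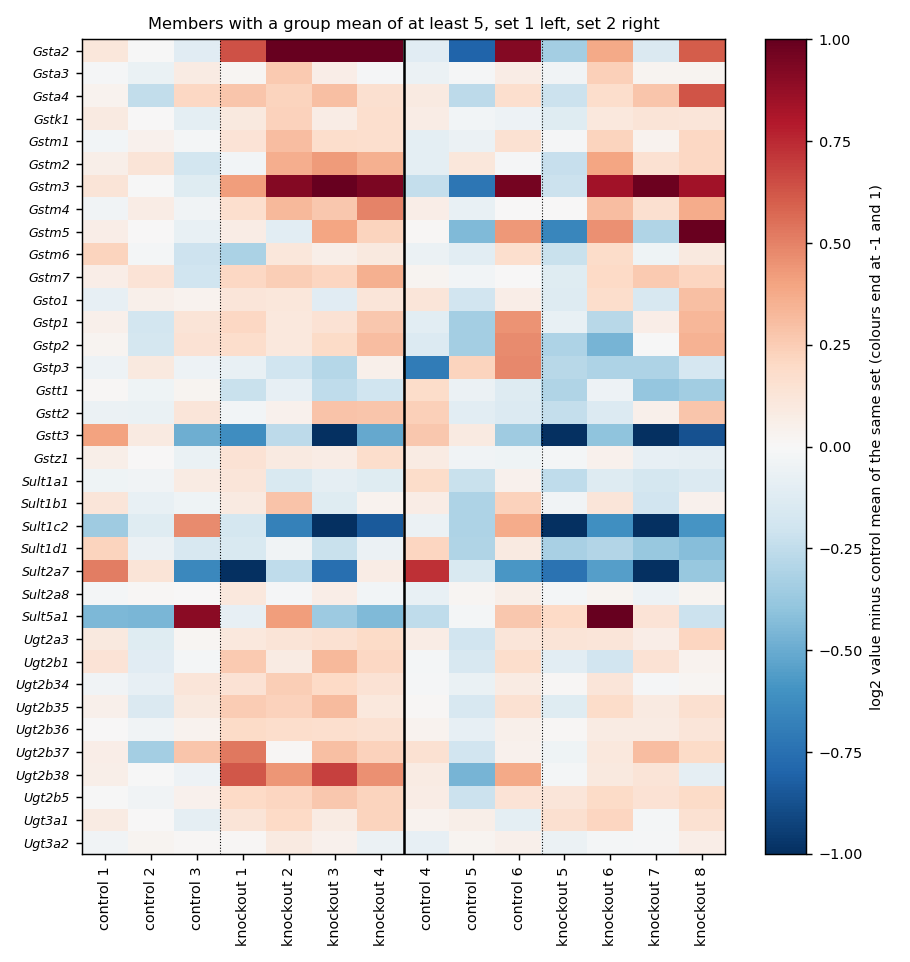
Log2 value minus the control mean of the same array set, for the 36 genes (rows) with a group mean of at least 5 in the 14 arrays (columns; set 1 left of the solid line, set 2 right, dotted lines between control and knockout). Red is above and blue below the control mean, and colours end at -1 and 1. Knockout 1 to 4 are red in most UGT and Gstm rows, control 5 is above the control mean in only 6 of 36 rows, and Gstt3 and Sult1c2 are blue in the knockout columns.

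Members lie in runs of neighbouring genes, and direction was shared along some runs and not others. On chromosome 5 the mouse gene table places 8 measured Ugt2 genes in 1 run with Sult1b1, Sult1d1 and Sult1e1, with 0 protein-coding genes of other families among the 13 of the run (the other 2 are not analysed here). The 8 Ugt2 genes were at 0.10 to 0.29, and the adjoining SULT genes at 0.03, -0.24 and -0.17. On chromosome 10 the order is Gstt3, Gstt1, Gstt4 and Gstt2, with -0.79, -0.23, 0.03 and 0.07. On chromosome 3 Gstm6 (-0.00) lies beside Gstm3 (0.75), and on chromosome 7 Sult2a8 (0.01) lies beside Sult2a7 (-0.60). The 3 Gstp genes on chromosome 19 run 0.10, 0.04 and -0.20.

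**Figure D4:**
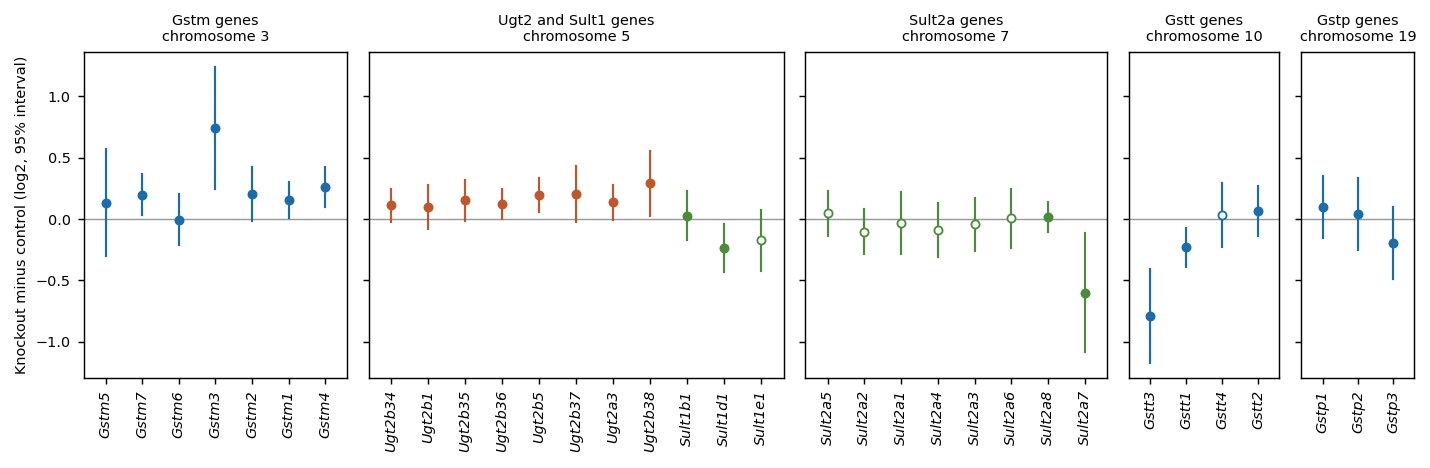
Knockout minus control on the log2 scale (y axis) with 95% intervals for members in their order along 5 chromosomes (x axis, order only, not to scale), with blue for GST, orange for UGT and green for SULT, and open points where both group means are under 5. The 8 Ugt2 genes on chromosome 5 are all above 0, and on chromosome 10 the values run from -0.79 at Gstt3 to 0.07 at Gstt2.

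Promoter windows (250 bases before to 50 after the start site) from RefSeq on GRCm38.p6 were matched for 45 of the 52 genes, 56 windows in all. Gsta4, Gstt2, Sult2a1, Sult2a2, Sult2a7, Sult4a1 and Ugt3a2 had no entry. The 3 genes with the widest differences are shown first, then the Gsta3 and Gstm7 windows for comparison, since these hold the core letters of the antioxidant response element bound by NRF2, TGACNNNGC, in capitals.
Gstm3 (GRCm38.p6, chr3:107969125-107969424, minus strand): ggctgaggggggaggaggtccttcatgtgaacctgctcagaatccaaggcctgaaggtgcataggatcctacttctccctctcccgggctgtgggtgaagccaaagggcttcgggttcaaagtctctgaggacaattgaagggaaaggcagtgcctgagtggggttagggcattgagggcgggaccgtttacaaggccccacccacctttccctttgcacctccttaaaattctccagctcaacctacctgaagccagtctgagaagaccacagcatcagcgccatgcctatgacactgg
Gstt3 (GRCm38.p6, chr10:75781365-75781664, minus strand): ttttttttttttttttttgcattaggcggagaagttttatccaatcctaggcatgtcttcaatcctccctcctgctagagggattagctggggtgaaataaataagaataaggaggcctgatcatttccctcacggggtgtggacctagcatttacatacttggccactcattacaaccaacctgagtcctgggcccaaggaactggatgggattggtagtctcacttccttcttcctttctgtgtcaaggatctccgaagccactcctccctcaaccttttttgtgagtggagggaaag
Sult1c2 (GRCm38.p6, chr17:53845909-53846208, minus strand): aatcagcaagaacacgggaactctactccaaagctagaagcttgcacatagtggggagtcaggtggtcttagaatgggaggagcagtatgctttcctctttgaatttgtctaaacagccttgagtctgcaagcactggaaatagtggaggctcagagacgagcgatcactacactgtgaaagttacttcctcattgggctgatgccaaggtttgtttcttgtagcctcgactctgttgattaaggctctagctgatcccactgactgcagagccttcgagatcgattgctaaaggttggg
Gsta3 (GRCm38.p6, chr1:21240335-21240634, plus strand): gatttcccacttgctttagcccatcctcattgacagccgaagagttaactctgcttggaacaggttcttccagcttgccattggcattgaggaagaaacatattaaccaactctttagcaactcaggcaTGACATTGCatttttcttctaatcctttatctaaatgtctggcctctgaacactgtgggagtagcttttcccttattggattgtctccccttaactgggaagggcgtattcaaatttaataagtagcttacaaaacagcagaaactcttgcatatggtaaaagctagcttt
Gstm7 (GRCm38.p6, chr3:107931565-107931864, minus strand): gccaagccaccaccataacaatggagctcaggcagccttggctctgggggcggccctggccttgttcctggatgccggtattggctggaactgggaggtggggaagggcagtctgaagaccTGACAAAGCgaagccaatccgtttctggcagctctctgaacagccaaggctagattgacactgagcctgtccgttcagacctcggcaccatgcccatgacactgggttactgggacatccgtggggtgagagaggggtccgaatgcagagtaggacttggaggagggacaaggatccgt
The letters TGACNNNGC, on either strand, occurred in 3 of the 56 windows, those of Gsta3, Gstm5 and one of Gstm7, and in 12.39% of 32851 mouse windows of this length. The core of the AhR site, GCGTG, which can overlap with it, occurred in 10 of 56 windows on either strand (6 of 27 GST, 0 of 9 UGT and 4 of 20 SULT windows) and in 32.39% of all windows. The printed windows of Gstm3, Gstt3 and Sult1c2 held neither. A match is a description of letters, and a missing match says only that these letters are not in the window.

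**Figure D5:**
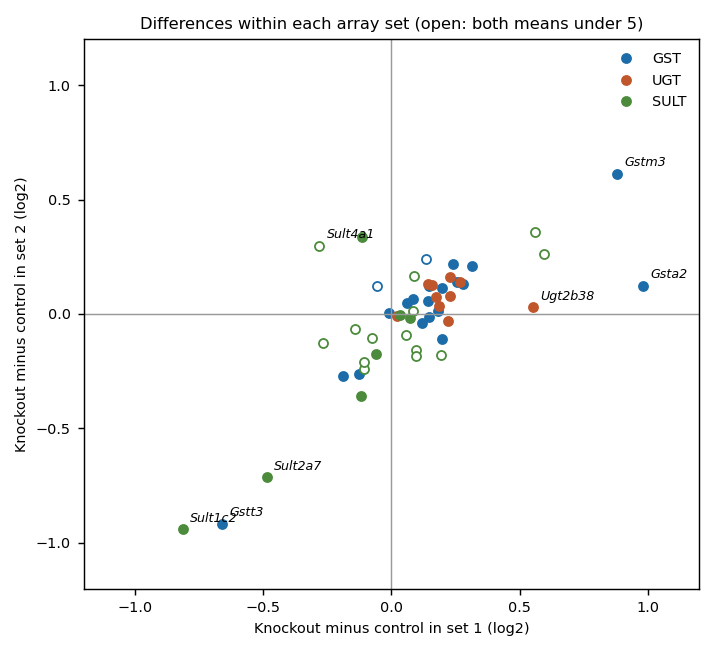
Knockout minus control on the log2 scale in set 1 (x axis) and set 2 (y axis) for the 52 genes, each from 3 control and 4 knockout arrays. Open points have both group means under 5. Gstt3, Sult1c2 and Sult2a7 are negative in both sets and Gstm3 positive in both, while Gsta2 (0.98 and 0.12) and Ugt2b38 (0.55 and 0.03) lie far right and near 0.

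The sign was positive in both sets for 25 of the 52 genes and negative in both for 12. Over all 19505 genes these counts were 5568 and 5215. By family the members were 13 positive and 3 negative GST genes, 8 and 0 UGT genes, and 4 and 9 SULT genes. The 4 positive SULT genes, Sult1c1, Sult2a5, Sult3a1 and Sult3a2, were all dim, and the 9 negative ones include dim rows. The family medians were 0.15 in set 1 and 0.06 in set 2 for GST, 0.20 and 0.08 for UGT, and -0.06 and -0.10 for SULT. No member passed the test of a difference between the sets (limma, adjusted p from 0.9975 to 0.9985), though 3 control and 4 knockout arrays per set can miss one. At an unadjusted p under 0.05 there were 2 members, Ugt2b38 and Sult4a1, and 943 of all 19505 genes. The set gap itself was over 1 on the log2 scale for 10 members, or 19.2%, against 11.0% of all genes, and widest for Gstm5 at -2.16. The precision of the fit was such that 42 of the 52 95% intervals lay within -0.5 and 0.5. This held for 17750 of all 19505 genes, and the 42 include dim rows.

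Supply of the co-substrates was described with 17 measured genes, of which 14 were positive and 0 called (median 0.09). Over all genes 50.6% were positive. The 3 negative genes were Chac1 (-0.52 ± 0.19, adjusted p = 0.290, dim), Ugp2 (-0.15 ± 0.07, adjusted p = 0.409) and Papss1 (-0.03 ± 0.13). Gsr, glutathione reductase, was at 0.27 ± 0.07 (adjusted p = 0.0878) with 8 of 8 knockout arrays above every control of their set. Gss, glutathione synthetase, was at 0.32 ± 0.09 (adjusted p = 0.163). The rate-limiting glutathione synthesis genes Gclc (0.05 ± 0.08) and Gclm (0.02 ± 0.08), Ugdh, which makes UDP-glucuronic acid (0.16 ± 0.08), and Papss2, which makes PAPS (0.03 ± 0.08), did not pass.

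Among 22 other conjugation and hydrolysis enzymes 17 were positive, 1 was called higher and 0 lower (median 0.04). Over all genes 50.6% were positive, 0.431% were called higher and 0.272% lower. Ephx1, the microsomal epoxide hydrolase that acts on the same epoxides as GST enzymes, rose by 0.52 ± 0.08 (1.44-fold, adjusted p = 0.0087). Its control values were 10.97 to 11.18 and its knockout values 11.36 to 11.86, without overlap even across the sets. Nnmt, nicotinamide N-methyltransferase, was at -1.17 ± 0.43 (adjusted p = 0.314), and Nqo1, a quinone reductase and NRF2 target, at 0.12 ± 0.11.

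Of 9 measured receptors and regulators 7 were positive and 0 called (median 0.08). The shares over all genes, for this list and those below, were 50.6% positive, 0.431% called higher and 0.272% lower. Nfe2l2 was at 0.28 ± 0.07 (adjusted p = 0.0682), with 8 of 8 knockout arrays above every control of their set. Its inhibitor Keap1 was at 0.05 ± 0.08, Nr1i3 at -0.07 ± 0.06, Nr1i2 at 0.18 ± 0.09, Ahr at 0.15 ± 0.09 and the fatty acid receptor gene Ppara at 0.21 ± 0.07 (adjusted p = 0.217). Among 12 target genes of these receptors outside conjugation, 8 were positive and 1 was called (median 0.14). Aldh3a2, a fatty aldehyde dehydrogenase, rose by 0.54 ± 0.07 (adjusted p = 0.0049), by 0.54 in each set. Srxn1, an NRF2 target, was at 0.44 ± 0.11 (adjusted p = 0.102), beside Txnrd1 at 0.11 ± 0.07 and Hmox1 at -0.14 ± 0.14 on the same list. The CAR target Cyp2b10 was at -0.53 ± 0.15 (adjusted p = 0.155) and Cyp2a5 at -0.30 ± 0.08 (adjusted p = 0.153). The PXR target Cyp3a11 was at 0.33 ± 0.10 (adjusted p = 0.195) and the AhR target Cyp1a2 at -0.09 ± 0.09. Of 10 transporters of drugs and conjugates 5 were positive and 1 was called (median 0.07): Slco1a4, a sinusoidal organic anion carrier, rose by 0.67 ± 0.14 (adjusted p = 0.0335), while its relative Slco1a1 was at 0.30 ± 0.10 (adjusted p = 0.213).

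Markers of other liver cells did not pass in any list. Median differences were -0.01 for 9 sinusoidal endothelium genes, -0.12 for 9 stellate cell genes, 0.05 for 9 macrophage genes, -0.06 for 7 bile duct genes and 0.09 for 8 blood genes (0 called in each). Relative to the control mean of their set, the endothelium list averaged -0.75 in control 1 and -0.46 in control 4, against 0.23 in control 5 and 0.23 in control 6. With control 1 and control 4 left out 0 conjugation genes were called, beside 0.133% of all genes. The bile duct list averaged 0.87 in control 3 and 0.88 in knockout 1, with Muc1 at 8.57 and 8.65 against 4.65 to 5.79 in the other arrays. These 2 arrays also held the highest Sult1c2 values of their set 1 groups, 8.52 and 7.87. With both left out, a choice made after seeing the data, Sult1c2 was at -0.88 (adjusted p = 0.0643), and Gstt3, at -0.92 (adjusted p = 0.0480), was the 1 member called, beside 0.4% of all genes.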

How the data were processed

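The authors deposited 1 table of log2 values with 22206 rows for 14 arrays. RMA and Partek are named, with no version, per the submitters' processing notes, the kit was WT PLUS per the labels' protocols, and the log2 scale was inferred from values of 2.13 to 13.8. No further normalization was applied. Array data give no read depth, and the number of arrays limits the precision. Rows were named through a platform table updated by gene identifier: 19572 rows had 1 symbol, 2634 were not named here, and the row with the highest mean was kept for 55 genes with over 1 row (0 of them members).

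The members, gene lists and the rule for named genes were chosen with earlier results of these data known. Array sets came from average-linkage clustering of the correlations between arrays. The group difference was fitted with limma 3.58.1 in R 4.3.3 (lmFit, then eBayes), including a term for the set, which leaves 11 residual degrees of freedom. This step was tested on simulated data. Prkaa1 and Prkaa2 also had an exact two-sided permutation test within the sets (p = 0.000816 for each, the smallest that 1225 splits can give).

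Named are members past the threshold, the 4 with the smallest p per family and direction, the smallest p per subfamily, a fixed set of symbols, and per other list those past the threshold and the 2 with the smallest p. Other members, and some further genes of the other lists, were named after their values were seen. Alternatives were the set term, replicate block, arrays left out or averaged, each set alone, eBayes options, array weights, 2 normalizations, a filter on dim genes, the mean of rows, other thresholds and a fold minimum.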

Additional observations from a re-analysis of the deposited data

Results flagged for a closer look

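Single arrays stood apart from the rest of their group for 13 of 162 groups examined (81 genes in control and in knockout), by the gap to the nearest array over the group's range, where chance gives about 1 in 20. Values here are log2, with the fitted gap between the array sets removed. Among the conjugation genes, Gstm7 was low in control 3 (9.32, nearest 9.56) and in knockout 5 (9.47, nearest 9.73), and Ugt2b36 was low in knockout 5 (12.68, nearest 12.75). Gstt1 was high in control 4 (11.62, nearest 11.42), Sult1a1 in knockout 1 (10.91, nearest 10.72) and Sult5a1 in control 3 (7.37, nearest 6.48). Among the other genes, Gss (8.32) and Srxn1 (7.38) were low in knockout 5 and Gsr was high in knockout 2 (9.15). Nnmt was low in control 3 (9.35, nearest 11.06), Nqo1 was low in control 5 (6.24), and the red cell gene Alas2 was low in control 2 (10.23) and high in knockout 4 (10.73).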

How the results depend on the processing

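Of the 52 conjugation genes, 34 kept the sign of their difference under all alternatives run. Leaving out single arrays gave 0 to 2 members higher (2 without control 6) and 0 to 1 lower (1 without control 3, knockout 1 or knockout 6). In these settings 94, 132, 68 and 93 of all 19505 genes were called in either direction, in that order. The trend and robust options gave 2 members higher and 1 lower, beside 1.03% and 0.636% of all genes. The filter on dim genes gave 2 members lower, beside 0.678% of the genes tested. A threshold of 0.1 gave 2 lower, where 242 of all genes were called in either direction. Over all genes, the fit with all arrays called 137 in either direction at 0.05. Single arrays left out gave 44 (control 4) to 132 (control 3), and among the others without which the count moved over 1.5 times were control 1 (52), control 2 (47), control 5 (85), knockout 1 (68), knockout 2 (81), knockout 3 (72), knockout 4 (55), knockout 5 (91), knockout 7 (69) and knockout 8 (80). The count was 0 without the set term (655 genes at an unadjusted p under 0.05), 26 without control 1 and 4, 36 without control 5 and 6 and 78 without control 3 and knockout 1 (both chosen after seeing the data, the latter with 1 member, Gstt3, called lower), 67 with knockout 5 and 7 and knockout 6 and 8 averaged, 12 without knockout 7 and 8, 2 in each set alone, 325 with trend and robust, 223 with the filter, 242 at 0.1, 18 at 0.01 and 40 with a fold of at least 1.5. Replicate numbers did not pair the samples. Same-numbered deviations correlated at 0.70 to 0.76, and at -0.70 for number 4, whose samples lie in different array sets. Within the sets the correlations were 0.02 to 0.09, and 3 of 12 samples were closest to their own number. With the number as a replicate block, 2 genes and 0 members were called, and Prkaa1 was at -0.55 (adjusted p = 0.280). Prkaa1 lost its call at -0.67 without the set term and at 0.01, at -0.64 without control 1 and 4, -0.61 without control 5 and 6, -0.62 without knockout 7 and 8, and -0.48 and -0.85 in set 1 and 2 alone. It ranged from -0.73 to -0.58 with 1 array left out (adjusted p up to 0.0770). Prkaa2 lost its call only without the set term, at -1.13, and ranged from -1.15 to -1.10 with 1 array left out. The cause of these changes was not tested.

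The sign turned for the other members as follows, at differences from -0.20 (Gstp3) to 0.11 (Sult5a1) with all arrays. In set 2 alone these were Gstm6 0.0035, Gstp2 -0.11, Gstt2 -0.0123, Gstz1 -0.0377, Sult1b1 -0.0158, Sult2a6 -0.18, Sult2a8 -0.0046, Ugt2b1 -0.0286 and Ugt3a2 -0.0071. In set 1 alone they were Gstt4 -0.0582, Sult2a1 0.0967, Sult2a3 0.0974, Sult4a1 -0.28, Sult5a1 -0.12 and Sult6b1 0.0579. Under the replicate block they were Gstp1 -0.0015, Gstp2 -0.0880, Sult4a1 -4.880e-04 and Ugt3a2 -0.0027. Without control 1 and 4 they were Gstm6 0.0370, Sult2a3 0.0032, Sult2a6 -0.0022, Sult2a8 -0.0087, Sult4a1 -0.0299, Sult5a1 -0.0648 and Ugt3a2 -0.0227. Without control 5 and 6 they were Gstm6 0.0122, Gstp3 0.0526, Sult2a1 0.0651, Sult2a3 0.0117, Sult4a1 -0.0792 and Sult6b1 0.0613. Without control 3 and knockout 1 they were Sult2a5 -0.0128, Sult2a6 -0.0962, Sult4a1 -0.0253 and Sult6b1 0.0165. Array weights gave Gstm6 0.0083, Sult2a1 0.0035, Sult2a3 0.0081, Sult4a1 -0.0506 and Sult6b1 0.0094. Averaging gave Sult4a1 -0.0419, and leaving out knockout 7 and 8 gave Gstp2 -0.0449, Sult4a1 -0.0392 and Ugt3a2 -0.0032. With 1 array left out Gstm6 ranged from -0.0478 to 0.0456, Gstp2 from -0.0171 to 0.17, Gstt4 from -0.0247 to 0.10, Sult1b1 from -0.0328 to 0.0847, Sult2a1 from -0.0796 to 0.0289, Sult2a3 from -0.11 to 0.0279, Sult2a5 from -0.0017 to 0.0890, Sult2a6 from -0.0710 to 0.0717, Sult4a1 from -0.0511 to 0.11, Sult5a1 from -0.0441 to 0.34, Sult6b1 from -0.0721 to 0.0315 and Ugt3a2 from -0.0093 to 0.0208. The arrays give 11 residual degrees of freedom, and dim rows may not measure their gene.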

Other observations

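Conjugation enzymes are known to differ in level along the liver lobule, so markers of both zones were read in the same limma fit. In that fit 0.272% of all genes were called lower and 0.431% higher. Of 8 pericentral markers 1 was called lower and 0 higher (median 0.01): Slc1a2, a glutamate transporter of hepatocytes around the central vein, fell by 0.37 ± 0.08 (adjusted p = 0.0454), with 8 of 8 knockout arrays below every control array of their set. Its control values were 9.75 to 9.93 in set 1 and 9.98 to 10.29 in set 2, and its knockout values 9.28 to 9.62 and 9.62 to 9.89. Axin2, a Wnt target of the same zone, was at 0.17 ± 0.11 (adjusted p = 0.652). Of 7 periportal markers 0 were called (median 0.01), with Pck1, a gluconeogenic enzyme, at 0.31 ± 0.10 (adjusted p = 0.207) and Hal, histidine ammonia-lyase, at -0.24 ± 0.10 (adjusted p = 0.364). Pigr, of the same list, was at -0.11 ± 0.06 (adjusted p = 0.566), also with 8 of 8 knockout arrays below every control of their set. Such separation held for 0.538% of all genes.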
